A study of Mus musculus with 8 samples.

Results

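Collagen chain genes encode the alpha chains that wind around each other into collagen triple helices. They were taken as every gene whose symbol is Col, a number, the letter a and a second number, and whose probe sets name that gene alone. This gave 36 genes measured by 58 probe sets, of 12393 genes and 20380 probe sets with 1 gene symbol. Where a gene had several probe sets, the one with the highest mean over all arrays stood for it. The genes fall into 9 fibrillar chains (types I, II, III, V and XI), the 6 type IV chains of basement membrane, and 21 chains of other types.

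RNA from the hippocampus of the right hemisphere was measured with 1 Affymetrix array for each of 8 mice. The 4 mice called normal were labelled as heterozygous carriers, Gusb mps/+ (strain background B6.C-H2-Kbm1/ByBir), so that by the labels both groups carried the mps allele. How each animal was genotyped is not given in the sources used here. The 4 mutants were labelled homozygous (Gusb mps/mps) on the same background. Mutants lack working beta-glucuronidase, the lysosomal enzyme encoded by Gusb, and serve as a model of mucopolysaccharidosis VII, a lysosomal storage disease. Normals 1 to 4 were a female of 38.3 weeks, a male of 25.6 weeks, a male of 19.6 weeks and a female of 14.6 weeks. Mutants 1 to 4 were a female of 38.3 weeks, males of 25.6 and 25.6 weeks and a female of 19.6 weeks. Animals of both genotypes shared cages and came from carrier by carrier sibling matings, and each array held 1 animal, so p-values measure the spread between animals.

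Fibrillar collagens form the ropes of connective tissue and, in the brain, lie mainly in the meninges and in the walls of larger vessels. Type IV collagen forms the sheet-like network of the basement membrane under endothelium, around pericytes and at the pial surface, where laminins and nidogens join it. The other types attach to fibrils, form beaded filaments or short-chain networks, or span the cell membrane, and most are sparse in brain tissue.

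Values are log2 expression, so that a difference of 1 is a doubling, and a level is compared only with levels of the same probe set. The highest value of 27 control probe sets for Bacillus subtilis genes, 3.72, was used to mark a gene as close to background (the highest absent control in the plots). By this mark 31 of the 36 collagens had a mean above background in both groups. The other 5 (Col1a1, Col4a3, Col4a4, Col17a1 and Col22a1) were above it in neither. Most of the 31 were still dim, as leaving out the lowest 40% of all genes by mean kept only 6 of the 36 collagens. Array medians lay between 6.09 and 6.17, and Pearson's r between arrays over genes between 0.961 and 0.994. Normal 1 stood apart in the difference between 3' and 5' control probe sets, a sign of RNA length, at 3.58 against 0.22 to 0.75 in the other 7 arrays. In all, 1 of 2 Gusb probe sets was lower in all 4 mutants (4.55 ± 0.15, SD, n = 4) than in all 4 normals (5.95 ± 0.48), a log2 difference of -1.40 with an exact permutation p of 0.0286 (two-sided), the smallest that 70 arrangements allow. The second Gusb probe set had the higher mean over all arrays and differed by 0.16 (exact permutation p = 0.657).

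The tissue on the arrays was not uniform by marker lists, and these values stand beside the collagen results below. The 7 measured striatal genes had a mean of 10.3, 7.47, 10.4 and 9.25 in normals 1 to 4 and of 6.66 to 7.69 in mutants. Means of 10 thalamic genes were highest in mutant 2 (9.86), mutant 4 (9.75) and normal 2 (9.15) and lay between 6.34 and 8.59 elsewhere. For 13 choroid plexus genes, mutant 1 (7.96) and mutant 3 (6.89) stood above the 4.37 to 5.31 of the other 6 arrays. The 17 meningeal fibroblast genes had means of 4.97 to 5.76 in normals and 5.85 to 6.87 in mutants, with all 17 higher in mutants on average and none past the test. Means of 18 endothelial genes were 5.73 to 6.38 in normals and 6.24 to 6.56 in mutants, and those of 12 mural genes 5.38 to 5.81 and 5.77 to 5.90. Means of 17 microglial and macrophage genes were 6.53 to 7.17 in normals and 8.18 to 8.41 in mutants. Of these genes 13 had the higher mean in mutants, 6 of them past the test. The other 4 (Csf1r, Cx3cr1, P2ry12 and Itgam) had the lower mean, and none of them passed. Means of 11 astrocyte genes were 8.83 to 9.26 in normals and 9.46 to 9.59 in mutants, and 1 of 11, Gfap, rose (limma adjusted p = 0.00787). Of the hippocampal neuron list 4 of 11 genes were measured, with means of 4.95 to 6.03 in normals and 4.82 to 7.53 in mutants. In bulk tissue, fewer cells of a type and less RNA per cell cannot be told apart.

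No collagen chain gene passed the adjusted threshold between mutant and normal hippocampus. Of the 36 genes, 0 rose and 0 fell at an adjusted p of 0.05 (limma, adjusted over 12393 genes), where 0.0968% of all genes were called higher and 0.00807% lower. The smallest adjusted p of a collagen was 0.445, for Col9a3. At an unadjusted p of 0.05, 4 collagens were past the threshold, 3 of them higher in mutants (Col9a3, Col8a1 and Col1a2) and 1 lower (Col6a1), beside 6.53% of all genes. All 4 mutants lay above all 4 normals in 2 collagens, Col9a3 and Col8a1, and below them in 0, beside 2.27% and 1.61% of all genes (3.88% in either direction).

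The collagens as a group sat close to the middle of all genes. The mean was higher in mutants for 21 of 36 collagens, against 52.5% of all genes, and the median difference was 0.045 over collagens and 0.011 over all genes. When each array was centred on its own median instead, 17 of 36 collagens and 40.8% of all genes had the higher mean in mutants. The collagen median was then -0.013 and that of all genes -0.047.

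**Figure D1:**
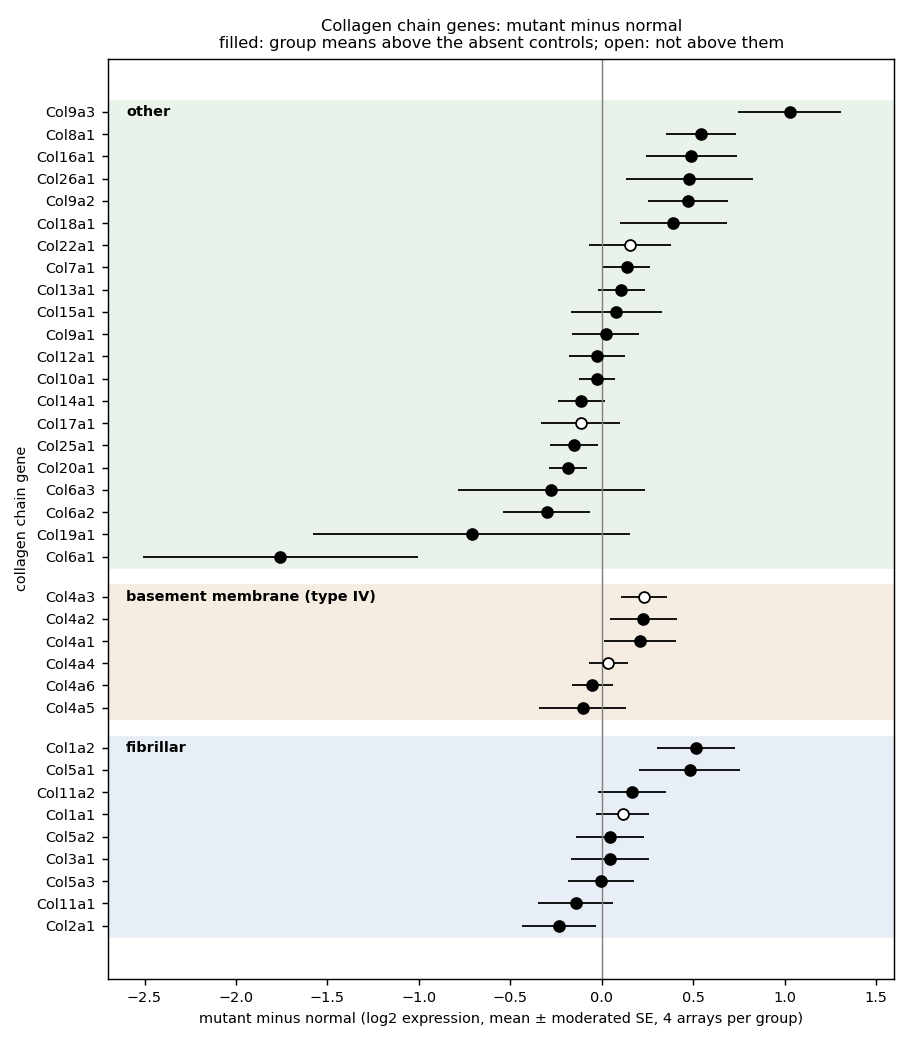
Mutant minus normal difference in log2 expression for each of the 36 collagen chain genes, grouped as fibrillar, basement membrane and other, with bars of 1 standard error from limma. The fibrillar and basement membrane chains lie between -0.24 and 0.51, and Col9a3 (1.03) and Col6a1 (-1.76), both of the other types, lie farthest from 0.

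The classes overlapped in their differences. Of the 9 fibrillar chains, 6 had a higher and 3 a lower mean in mutants, with a median of 0.045 that turned to -0.013, with 4 higher and 5 lower, after median centring. The 6 type IV chains were 4 higher and 2 lower, with a median of 0.12, and 3 higher and 3 lower, with a median of 0.064, after centring. Among the 21 other chains 11 were higher and 10 lower, and their median of 0.022 turned to -0.036 after centring. The fibrillar differences ran from -0.24 to 0.51, those of type IV from -0.11 to 0.23 and those of the other types from -1.76 to 1.03.

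Within the fibrillar class, Col1a2 had the largest difference. It encodes the alpha-2 chain of type I collagen, the main fibril collagen of skin, bone and meninges. Col1a2 read 6.98, 6.74, 6.10 and 6.40 in normals 1 to 4 and 6.73, 7.30, 6.98 and 7.26 in mutants 1 to 4. Mutants 2 and 4 lay above every normal, mutant 3 lay level with normal 1, the highest normal, mutant 1 lay among the normals, and the groups overlapped. The means were 6.55 ± 0.39 and 7.07 ± 0.26 (SD, n = 4 each), a difference of 0.51 ± 0.21 (SE) or 1.43-fold that did not pass the test (limma adjusted p = 0.733). A second Col1a2 probe set differed by 0.46. Without normal 3, the lowest array, the difference was 0.36.

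Its partner chain Col1a1, which supplies the alpha-1 chain of type I collagen, read close to background on both of its probe sets. Its highest value in any array was 3.66, below 3.72, and its mean difference was 0.11 ± 0.14 (adjusted p = 0.939). Measured levels therefore covered 1 of the chains of type I collagen. For Col3a1, the single chain of type III collagen of vessel walls, normals read 4.40, 4.10, 3.84 and 3.43 and mutants 3.76, 3.95, 4.28 and 3.97. The groups overlapped throughout, with the highest and the lowest value both in normals. The difference was 0.045 ± 0.21, and it took either sign across the alternatives tried, from -0.13 to 0.20.

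Type V collagen sits inside type I fibrils and limits their width, and Col5a1 encodes its alpha-1 chain. Col5a1 read 5.12, 5.03, 5.57 and 5.46 in normals and 5.13, 6.03, 6.43 and 5.50 in mutants. Both male mutants, 2 and 3, lay above the other 6 arrays, while the female mutants lay among the normals. The difference was 0.48 ± 0.28 (adjusted p = 0.845), and the other Col5a1 probe sets differed by 0.13 and 0.37. Without mutant 3 the Col5a1 difference was 0.26. Chains of cartilage fibrils showed small differences in both directions, 0.17 ± 0.19 for Col11a2, -0.14 ± 0.21 for Col11a1 and -0.24 ± 0.20 for Col2a1. None of these 3 passed the test, with adjusted p from 0.909 to 0.945.

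Promoter sequences are shown for Col1a2, Col8a1 and Col6a1, collagens with an unadjusted p under 0.05 that had a window in the RefSeq promoter table (build GRCm38.p6). Each is the 250 bases before the annotated start, written 5′ to 3′ on the strand of the gene. Capitals mark matches on either strand to the CCAAT box (CCAAT) or the GC box (GGGCGG), and no TATAAA was found in the 3 windows.
Col1a2, chr6:4505368-4505617, plus strand: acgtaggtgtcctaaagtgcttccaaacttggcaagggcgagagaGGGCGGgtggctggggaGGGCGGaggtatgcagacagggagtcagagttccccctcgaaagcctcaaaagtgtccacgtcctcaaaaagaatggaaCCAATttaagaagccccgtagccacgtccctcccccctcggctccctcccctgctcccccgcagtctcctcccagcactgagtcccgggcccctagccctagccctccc
Col8a1, chr16:57754738-57754987, minus strand: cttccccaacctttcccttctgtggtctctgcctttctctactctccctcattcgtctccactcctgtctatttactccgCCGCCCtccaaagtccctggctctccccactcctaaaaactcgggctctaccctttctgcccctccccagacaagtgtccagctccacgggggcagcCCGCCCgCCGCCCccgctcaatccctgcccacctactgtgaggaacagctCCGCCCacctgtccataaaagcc
Col6a1, chr10:76726045-76726294, minus strand: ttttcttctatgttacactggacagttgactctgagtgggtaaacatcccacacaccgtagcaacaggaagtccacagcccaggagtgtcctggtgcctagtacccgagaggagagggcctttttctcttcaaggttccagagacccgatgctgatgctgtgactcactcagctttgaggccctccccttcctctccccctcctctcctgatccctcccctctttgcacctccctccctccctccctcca
The Col1a2 window held 1 CCAAT box, 109 bases before the start, and 2 GC boxes. In the Col8a1 window there were 4 GC boxes and no CCAAT box, and the Col6a1 window held neither motif. Over all 30 windows of 27 matched collagen genes, 16 held a GC box, 12 a CCAAT box and 5 TATAAA. Among all 32851 windows of the same length the shares were 32.7%, 33.8% and 12.4%, and the collagen shares for the GC box and TATAAA were 53.3% and 16.7%. A match describes letters in these windows and not a bound site. Col9a3 and 8 other collagens (Col1a1, Col2a1, Col4a3, Col5a2, Col12a1, Col14a1, Col22a1 and Col26a1) had no window.

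The main type IV chains, Col4a1 and Col4a2, assemble with each other into the collagen of vascular basement membrane. Their genes lie head to head, with annotated starts 21 bases apart. The starts lie past each other, so that the annotated 5' ends overlap and no gap lies between them. Longer windows, from 250 bases before to 50 bases after each start, overlap by 78 bases. Col4a1 read 7.22, 7.22, 6.57 and 6.98 in normals and 6.83, 7.52, 7.25 and 7.21 in mutants. For Col4a2 the normals read 6.29, 6.23, 5.60 and 6.27 and the mutants 6.05, 6.49, 6.28 and 6.49. Both genes were lowest in normal 3, both were lower in mutant 1 than in every other mutant, and the groups overlapped in both. Col4a1 differed by 0.21 ± 0.20 (adjusted p = 0.911) and Col4a2 by 0.23 ± 0.18 (adjusted p = 0.907), and a second Col4a1 probe set differed by 0.27. Without normal 3 the differences were 0.07 and 0.06. With the striatal list mean as a covariate they were -0.10 and -0.02, and the part of tissue content in these values was not tested. That list mean was 7.47 to 10.4 in normals and 6.66 to 7.69 in mutants. Here and below, this covariate and genotype can therefore be told apart only in part.

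The other type IV chains are best known from kidney glomerulus, lens, cochlea and smooth muscle. Col4a3, with the Col4a4 and Col4a5 chains the collagen of the glomerular basement membrane, read 3.60, 3.32, 3.29 and 3.30 in normals and 3.85, 3.50, 3.48 and 3.61 in mutants. Only mutant 1 was above the background mark. The Col4a3 difference was 0.23 ± 0.13 (adjusted p = 0.843). For Col4a5 the normals read 4.71, 4.12, 3.95 and 4.42 and the mutants 4.10, 3.79, 4.76 and 4.13. Col4a6 read 5.11, 5.05, 4.84 and 5.11 in normals and 5.15, 4.92, 4.95 and 4.88 in mutants. These neighbours on the X chromosome overlapped between groups, and their differences were -0.11 ± 0.24 for Col4a5 and -0.05 ± 0.11 for Col4a6. Second probe sets for these genes differed by 0.24 and 0.13, in the opposite direction, and neither passed the test.

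**Figure D2:**
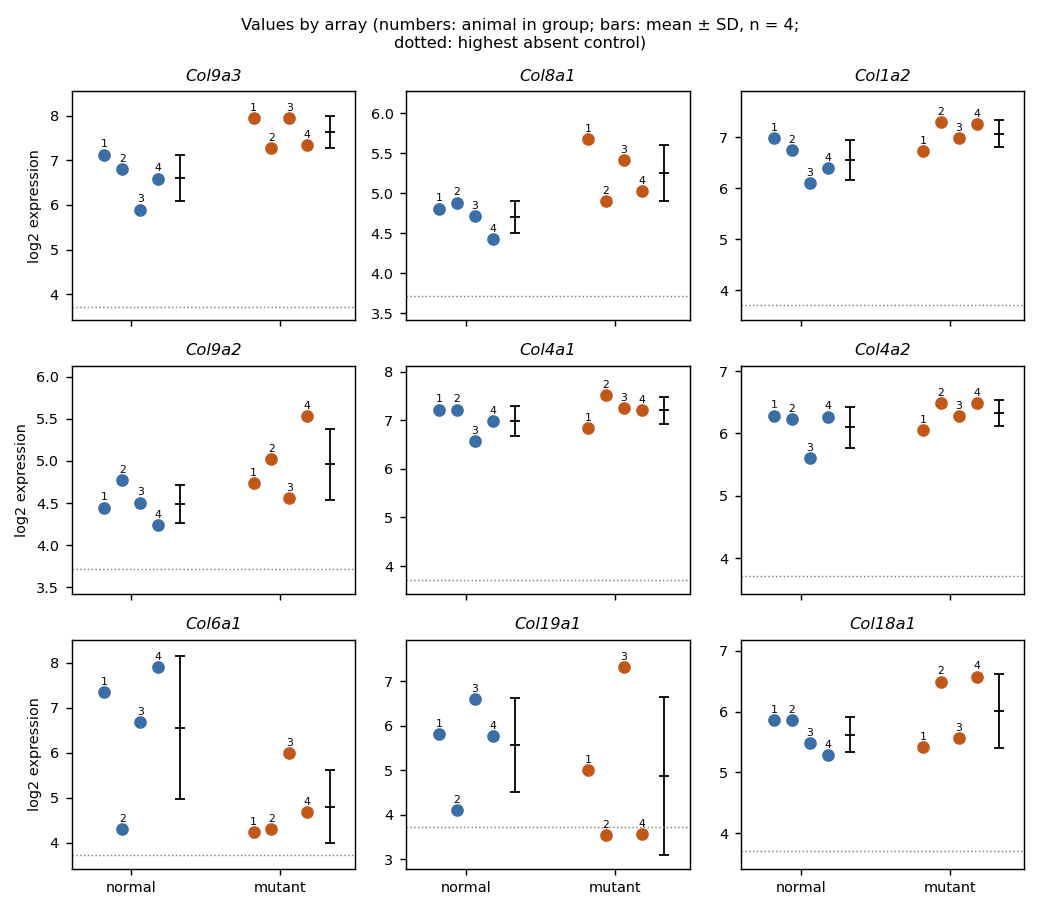
Log2 expression of 9 collagen genes in each array, with points numbered by animal, bars for the mean ± SD (n = 4) and a dotted line at the background mark of 3.72. The groups separate in Col9a3 and Col8a1 and overlap in the other 7 genes, and mutants 1 and 3 are highest in Col9a3 and Col8a1 while mutants 2 and 4 are highest in Col1a2, Col9a2 and Col18a1.

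Among the other types, the largest positive difference belonged to Col9a3, a chain of type IX collagen, which decorates type II fibrils in cartilage. Col9a3 read 7.13, 6.81, 5.89 and 6.59 in normals 1 to 4 and 7.95, 7.29, 7.95 and 7.35 in mutants 1 to 4. Every mutant lay above every normal, with mutants 1 and 3 highest and normal 3 lowest. The means were 6.61 ± 0.52 and 7.63 ± 0.37 (SD, n = 4 each), a difference of 1.03 ± 0.28 or 2.04-fold, with an adjusted p of 0.445 (limma, unadjusted p = 0.0057). Of the other Col9a3 probe sets, 1 differed by 0.62 with overlapping groups, and 1 never read above background and differed by 0.06. The mean over the Col9a3 probe sets differed by 0.57. Without normal 1, the array with the high 3' to 5' difference, Col9a3 differed by 1.20. Mutants 1 and 3 were also the arrays with the highest choroid plexus list. Without them the Col9a3 difference was 0.71, and with the choroid plexus list mean as a covariate it was 0.58. The part of choroid plexus in the difference was not tested.

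The partner chains of type IX collagen did not show the same order of arrays. Col9a2 read 4.45, 4.78, 4.51 and 4.24 in normals and 4.74, 5.02, 4.56 and 5.53 in mutants, with mutants 4 and 2 highest. Its groups overlapped, and the difference was 0.47 ± 0.22 (adjusted p = 0.776), and 0.28 without mutant 4. Col9a1, the remaining partner, was named after its values were seen. It read 5.20, 4.98, 4.36 and 4.69 in normals and 4.90, 4.98, 4.68 and 4.75 in mutants, with the highest and lowest values both in normals. The Col9a1 difference was 0.022 ± 0.18, and a second Col9a1 probe set differed by -0.22.

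Col8a1 was the other collagen whose groups did not overlap. It encodes a chain of type VIII collagen, a short-chain network collagen of vessel walls and of the membrane under the corneal endothelium. Col8a1 read 4.81, 4.88, 4.72 and 4.43 in normals and 5.67, 4.90, 5.41 and 5.02 in mutants. Mutants 1 and 3 were again highest, and mutant 2 (4.90) lay just above normal 2 (4.88). The means were 4.71 ± 0.20 and 5.25 ± 0.35 (SD, n = 4 each), a difference of 0.54 ± 0.19 or 1.46-fold (adjusted p = 0.661). Without mutants 1 and 3 the Col8a1 difference was 0.25, and with the choroid plexus covariate it was 0.15. A second Col8a1 probe set differed by 0.50 but read above background in only 1 array. The part of choroid plexus in these values was not tested.

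Type VI collagen forms beaded microfilaments close to cell surfaces from the products of Col6a1, Col6a2 and Col6a3. Col6a1 read 7.35, 4.29, 6.68 and 7.90 in normals 1 to 4 and 4.23, 4.29, 5.99 and 4.68 in mutants 1 to 4. Normals 1, 3 and 4 lay above all mutants, while normal 2 read as low as the low mutants. The means were 6.56 ± 1.59 and 4.80 ± 0.82 (SD, n = 4 each), a difference of -1.76 ± 0.75 or 3.38-fold lower, the largest of any collagen (adjusted p = 0.747, unadjusted p = 0.0459). The same 3 normals had the highest striatal list means (9.25 to 10.4), against 6.66 to 7.69 in the other 5 arrays. Without normal 1 the Col6a1 difference was -1.49. Without normal 2 it was -2.51, with an adjusted p of 0.0984 (limma), the smallest of any collagen under the alternatives. With the striatal list mean as a covariate the Col6a1 difference was -0.30, and the part of striatal tissue was not tested.

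Of the partner chains, Col6a2 shared its high arrays with Col6a1 and Col6a3 did not. Col6a2, whose gene lies next to that of Col6a1, read 6.15, 5.47, 6.43 and 6.39 in normals and 5.70, 5.48, 6.14 and 5.92 in mutants. Normals 1, 3 and 4 were again highest, normal 2 and mutant 2 were lowest and the groups overlapped. The Col6a2 difference was -0.30 ± 0.24 (limma adjusted p = 0.905) and turned to 0.18 with the striatal covariate. A second Col6a2 probe set differed by -0.08. Col6a3, chosen for mention after its values were seen, read 4.85, 6.47, 4.53 and 5.64 in normals and 6.31, 4.43, 4.98 and 4.67 in mutants. Its highest arrays, normal 2 and mutant 1, were among the lowest for Col6a1, and its difference was -0.28 ± 0.51. All 3 type VI chains had the lower mean in mutants, and none passed the test.

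The multiplexins are proteoglycan collagens of basement membranes, and the end of Col18a1 is released as endostatin. Col18a1 read 5.87, 5.86, 5.48 and 5.28 in normals and 5.42, 6.49, 5.57 and 6.58 in mutants. Mutants 2 and 4 stood above the other 6 arrays, and mutants 1 and 3 read below normals 1 and 2. The difference was 0.39 ± 0.29 (adjusted p = 0.898), and a second Col18a1 probe set differed by 0.42. Mutants 2 and 4, with normal 2, had the highest thalamic list means, and without these 3 arrays the Col18a1 difference was -0.05. Leaving out mutants 2 and 4, the highest arrays for Col18a1, lowers the mutant mean whatever the tissue content. With the thalamic list mean as a covariate the Col18a1 difference was 0.22. The part of thalamic tissue was not tested.

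A pair of collagens chosen after their values were seen had the same high arrays. Col16a1, a fibril-associated collagen, read 7.11, 6.86, 6.29 and 6.46 in normals and 6.75, 7.53, 6.86 and 7.54 in mutants. Col26a1, a collagen with no settled class, read 4.27, 4.55, 3.55 and 3.53 in normals and 4.12, 5.11, 3.78 and 4.82 in mutants. In both, mutants 2 and 4 were highest and normals 3 and 4 were among the lowest 3 arrays. The differences were 0.49 ± 0.25 for Col16a1 and 0.48 ± 0.35 for Col26a1. Without normal 2 and mutants 2 and 4 they were 0.19 and 0.17, but leaving out the highest mutants lowers the mutant mean in any case. With the thalamic list mean as a covariate the differences were 0.35 for Col16a1 and 0.26 for Col26a1, and the part of thalamic tissue was not tested.

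Col19a1, a fibril-associated collagen that interneurons make, spread most widely of all collagens. It read 5.82, 4.10, 6.60 and 5.78 in normals and 5.0, 3.55, 7.33 and 3.57 in mutants, a span of 3.78 over the 8 arrays. Mutant 3 was highest and mutants 2 and 4 were below background, so that the mutant SD was 1.78. The difference was -0.71 ± 0.87 (adjusted p = 0.935), and a second Col19a1 probe set differed by -0.03. Leaving out 1 animal gave -1.53 without mutant 3 and -0.27 without mutant 2 as the extremes. Col17a1, a membrane-spanning collagen of epithelial hemidesmosomes, stayed below background in all arrays, with a difference of -0.12 ± 0.21. The 12 remaining collagens are given by count and range. Over all 31 collagens above background, 4 spanned more than 2 over the 8 arrays (Col19a1, Col6a1, Col9a3 and Col6a3), 6 spanned under 0.5, and the median span was 0.96.

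Array by array, the collagens did not share 1 order. Of the 31 collagens above background, normal 3 was the lowest array for 10 and normal 4 for 6, and mutant 2 was also the lowest for 6. Mutants 3 and 4 were each the highest array for 6, and normal 1 and mutant 2 each for 5. Mutant 2 was thus both often highest and often lowest among collagens.

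**Figure D3:**
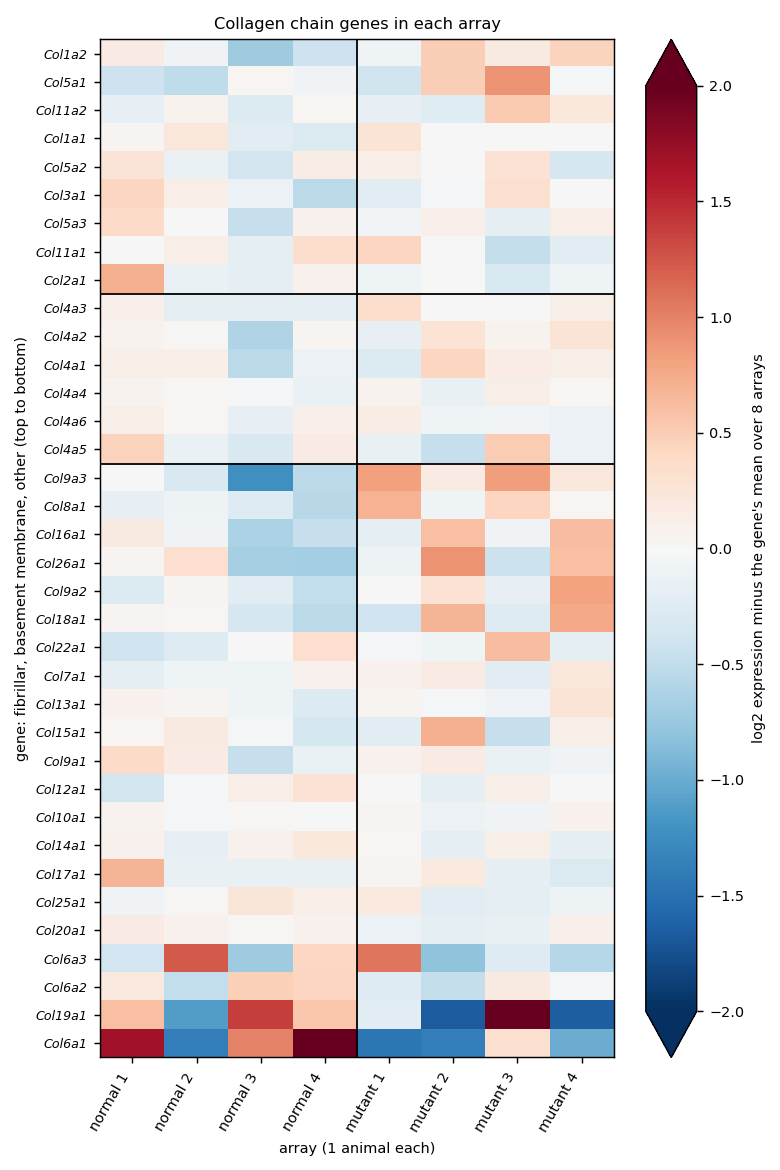
Log2 expression of each collagen gene in each array minus that gene's mean over 8 arrays, with fibrillar, basement membrane and other genes divided by lines. Col6a1 is high in normals 1, 3 and 4, Col9a3 and Col8a1 are high in mutants 1 and 3, Col16a1, Col18a1 and Col26a1 are high in mutants 2 and 4, and most fibrillar and type IV rows are pale.

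**Figure D4:**
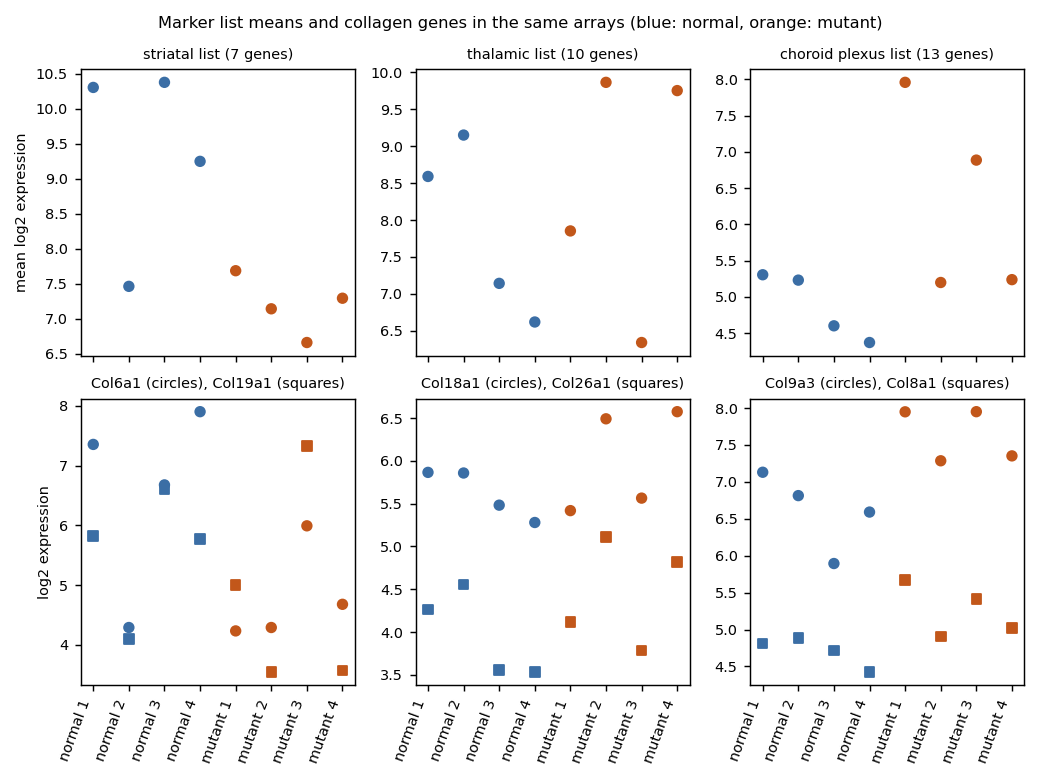
Each array along the horizontal axis, with the mean log2 expression of the striatal, thalamic and choroid plexus marker lists (top) and the log2 expression of collagen genes (bottom), Col6a1 and Col19a1, Col18a1 and Col26a1, and Col9a3 and Col8a1. The plot describes 8 arrays with no test, and the high arrays are normals 1, 3 and 4 for the striatal list and Col6a1, mutants 2 and 4 for the thalamic list and Col18a1, and mutants 1 and 3 for the choroid plexus list and Col9a3. Normal 2 is also high in the thalamic list (9.15) but not in Col18a1 (5.86). Col19a1 is highest in mutant 3 (7.33), the array with the lowest striatal mean (6.66).

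Both groups held 2 females and 2 males, and sexes were compared with genotype as a term. No collagen passed the test (0 of 36, beside 0.0323% of all genes, 0.00807% higher and 0.0242% lower in females), and 0 of 36 had an unadjusted p under 0.05, beside 1.95% of all genes. The mean was higher in females for 26 of 36 collagens, and for 22 after quantile normalization was applied again, with no share over all genes to set beside these counts. Normal 1, the array with the high 3' to 5' difference, was a female. The smallest p-values belonged to Col5a1, with a female minus male difference of -0.47 ± 0.24 (unadjusted p = 0.0943), and Col2a1, with 0.31 ± 0.18. The adjusted p of every collagen was 1.00 to 3 digits.

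The difference between the sexes in the mutant effect was tested as an interaction over 4 cells of 2 animals. Of the 36 collagens 0 passed, beside 0.0% of all genes, and 0 had an unadjusted p under 0.05, beside 11.5% of all genes. Col5a1 had the smallest p. Its mutant minus normal difference was 0.03 in females and 0.93 in males, an interaction of -0.90 ± 0.38 (adjusted p = 0.437). For Col6a1 the difference was -3.17 in females and -0.34 in males, an interaction of -2.83 ± 1.20 (unadjusted p = 0.0544).

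Age was fitted as a slope with genotype as a term, over 14.6 to 38.3 weeks. Again 0 of 36 collagens passed, beside 0.0% of all genes, and 2 of 36 had an unadjusted p under 0.05, beside 5.74% of all genes. These were Col17a1, with 0.028 ± 0.010 per week but values below background, and Col9a3, with 0.034 ± 0.014 per week. Col17a1 read highest (3.39) in normal 1, aged 38.3 weeks, the array with the high 3' to 5' difference. The smallest adjusted p of a collagen was 0.794. The slope was positive for 25 of 36 collagens, and for 20 after median centring, again with no share over all genes to set beside these counts. With age as a covariate the mutant minus normal difference of Col9a3 was 0.93.

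Genes that make, join, bind, degrade or induce collagen were given from 7 lists, with 98 genes measured. Of these, 0 rose and 0 fell at the adjusted threshold, and the smallest adjusted p was 0.193. The mean was higher in mutants for 67 of 98 and the median difference was 0.18, against 0.045 over collagen chains and 0.011 over all genes. After median centring the mean was higher for 63 of 98, with a median of 0.12. An unadjusted p under 0.05 was found for 19 genes with the higher mean in mutants, where 4.05% of all genes had one, and for 0 with the lower mean, where 2.48% had one. All mutants lay above all normals in 10 of the 98, beside 2.27% of all genes, and below them in 3, beside 1.61%.

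Folding and hydroxylation enzymes act on the chains in the endoplasmic reticulum. Of 16 measured, 12 had the higher mean in mutants, with a median of 0.12. Plod2, which hydroxylates telopeptide lysines, read 5.32 to 5.99 in normals and 6.09 to 6.26 in mutants, with no overlap, a difference of 0.51 ± 0.15 (adjusted p = 0.536). Crtap, of the prolyl 3-hydroxylase complex, differed by 0.45 ± 0.16 and Ppib, the cyclophilin of that complex, by 0.32 ± 0.15, both with overlapping groups.

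Processing and crosslinking enzymes act after secretion, and 7 of 11 had the higher mean in mutants, with a median of 0.11. Pcolce, which enhances removal of the C-propeptide, read 5.33, 5.24, 5.51 and 4.88 in normals and 7.53, 5.64, 6.23 and 5.80 in mutants. Mutant 1 was highest, mutant 3 next, and all mutants lay above all normals, with a difference of 1.06 ± 0.38 (limma adjusted p = 0.682). Lox, the lysyl oxidase that starts crosslinks, differed by 0.38 ± 0.15 with overlapping groups. Tll2, a procollagen protease, was below background in all arrays and differed by -0.19 ± 0.11, without overlap.

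Receptors bind collagen at the cell surface, and 6 of 8 had the higher mean in mutants, with a median of 0.22. Mrc2, which takes up collagen fragments, differed by 0.52 ± 0.23, Cd36, a scavenger receptor, by 0.54 ± 0.17, below background, and Lair1, an inhibitory receptor of immune cells, by 0.23 ± 0.19. All 3 overlapped between groups, with adjusted p from 0.572 to 0.907.

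Degrading enzymes and their inhibitors had the higher mean in mutants in 11 of 16, with a median of 0.16, and in 9 of 16 after median centring. Ctsl, a lysosomal cathepsin, read 10.01 to 10.26 in normals and 10.48 to 10.73 in mutants, with no overlap, a difference of 0.51 ± 0.11 (adjusted p = 0.313). Ctsb, another lysosomal cathepsin, differed by 0.29 ± 0.11 without overlap. Timp3, a metalloproteinase inhibitor that binds matrix, differed by 0.78 ± 0.28 with overlapping groups.

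Proteins that bind fibrils had the largest differences of these lists, and 13 of 19 had the higher mean in mutants, with a median of 0.25. Dcn, the proteoglycan decorin, read 6.68, 7.42, 6.67 and 6.51 in normals and 8.64, 7.35, 9.38 and 7.61 in mutants. Mutants 3 and 1 were highest and mutant 2 lay below normal 2, with a difference of 1.42 ± 0.44 (adjusted p = 0.536). Lum, the proteoglycan lumican, read 4.72 to 5.69 in normals and 5.96 to 7.57 in mutants, with no overlap and a difference of 1.33 ± 0.38 (adjusted p = 0.471). Dcn and Lum also stand in the meningeal fibroblast list, whose means were 4.97 to 5.76 in normals and 5.85 to 6.87 in mutants, and its part was not tested. Fbln1, the elastic-fibre protein fibulin-1, differed by 1.18 ± 0.29 without overlap (adjusted p = 0.336).

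Basement membrane partners of type IV collagen had the higher mean in mutants in 11 of 15, with a median of 0.18. Lamb2, a laminin beta chain, read 5.35 to 6.13 in normals and 6.30 to 6.61 in mutants, with no overlap and a difference of 0.71 ± 0.21 (adjusted p = 0.502). Nid2, a nidogen that ties laminin to type IV collagen, differed by 0.63 ± 0.31 and Lama1, a laminin alpha chain, by 0.32 ± 0.16, both with overlapping groups.

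Signals known to induce collagen genes were 7 higher and 6 lower of 13, with a median of 0.16. Tgfb1, a growth factor that induces collagen in fibroblasts, read 4.13, 4.04, 3.97 and 3.69 in normals and 4.61, 4.84, 4.45 and 4.85 in mutants. All mutants lay above all normals, with a difference of 0.73 ± 0.14 and the smallest adjusted p of the 98 genes (0.193). Tgfb2, of the same family, differed by 1.26 ± 0.34 without overlap (limma adjusted p = 0.434). Tgfbr2, the shared receptor of Tgfb1 and Tgfb2, differed by 0.74 ± 0.27 with overlapping groups. Beside these, Col1a2 and Col3a1, targets of these growth factors in fibroblasts, differed by 0.51 and 0.045.

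**Figure D5:**
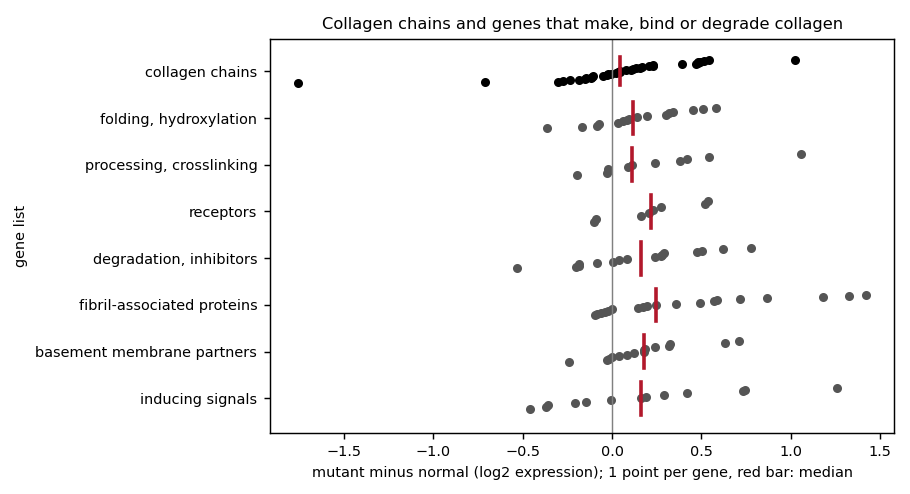
Mutant minus normal differences in log2 expression of the 36 collagen chain genes and of 7 lists of genes that make, join, bind, degrade or induce collagen, with 1 point per gene and a red bar at the median of each list. Medians run from 0.11 to 0.25 in the 7 lists and stand at 0.045 in the collagen chains, whose points reach from -1.76 to 1.03.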

How the data were processed

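The deposited table holds log2 expression values per probe set. Per the submitters' processing notes the authors used GCOS 1.4 and RMA, which corrects background, normalizes between arrays and summarises probes. The build behind the probe sets is not given in the sources used here, and no scanner files were used. Of 22690 probe sets, 64 were controls and 691 named several genes. Each of 12393 genes, represented by its brightest probe set on average, was fitted with limma 3.58.1 in R 4.3.3 (lmFit, eBayes), Benjamini-Hochberg adjusted over all genes, threshold 0.05, two-sided, with no filter on dim genes. Sex, the interaction of genotype and sex, and age were fitted as stated in the text. Fits were tested on simulated data.

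The collagens, the classes and all lists were chosen with earlier results of these data known. Named are Gusb, 9 collagens fixed by name (Col1a1, Col1a2, Col3a1, Col4a1, Col4a2, Col6a1, Col6a2, Col8a1, Col18a1), every collagen past the threshold or without overlap, per class the 4 smallest p and the 2 largest differences in each direction above background, 3 genes per list and 2 per sex, age and interaction fit. Arrays give no counts, so the 4 animals per group limit the precision. There were 25 alternatives: other probe set choices, dim filter, scaling, eBayes options, array weights, sex, age or age block, and left-out arrays. Of these, 4 (marker list covariates and 3 arrays left out) were chosen after seeing the data. Figures were drawn with matplotlib 3.10.9.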

Additional observations from a re-analysis of the deposited data

Results flagged for a closer look

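In 4 of 72 groups of 4 animals, 1 value lay far from the other 3, by a test that flags about 1 in 20 groups by chance. Col17a1 read 3.39 in normal 1 and 2.56 to 2.57 in the other normals. Col4a3 read 3.60 in normal 1 and 3.29 to 3.32 in the other normals. For Col1a1, mutant 1 read 3.66 against 3.38 to 3.39 among mutants 2 to 4. In the flagged groups of Col17a1, Col4a3 and Col1a1 every value lay below the background mark of 3.72. Col4a2 read 5.60 in normal 3 and 6.23 to 6.29 in the other normals.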

How the results depend on the processing

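No collagen and no gene of the 7 lists passed the adjusted threshold under any alternative run for it, and the same holds for the collagens in the sex, interaction and age fits. No paired analysis was possible because the labels state no pairs, unless pairs were chosen by sex and age. At each animal number used here the sexes matched between the groups, but the ages matched only at numbers 1 and 2. Pairs chosen in this way were not fitted, so what pairing would change was not tested. Ages do match in part, and with age as a random block (correlation -0.239) 0 collagens passed, with a smallest adjusted p (limma) of 0.639. The class medians that moved by more than the spread between replicates were as follows. Leaving out the lowest 40% of genes gave 0.51 for fibrillar (1 gene left) and 0.49 for other collagens (3 left), because the dim members no longer entered these medians. Leaving out normal 2 and mutants 2 and 4 gave 0.20 for fibrillar. The striatal covariate gave -0.048 for type IV and 0.11 for other collagens, and the cause was not tested.

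Of 530 alternative values for 23 named collagens, 501 kept their direction and 29 turned, and the cause was not tested. Col9a1, not among these 23, took either sign across the alternatives, from -0.13 without normal 3 to 0.17 with array weights. With the striatal covariate the differences were -0.16 for Col11a2, 0.21 for Col17a1, 0.26 for Col19a1, -0.042 for Col1a1, 0.058 for Col2a1, -0.10 for Col4a1, -0.022 for Col4a2, -0.020 for Col3a1 and 0.18 for Col6a2. With the choroid plexus covariate Col1a1 was -0.065 and Col3a1 -0.047. Without normal 2 and mutants 2 and 4 they were -0.051 for Col18a1, 0.10 for Col19a1, 0.070 for Col4a5, 0.031 for Col4a6 and 0.64 for Col6a3. The mean of all probe sets gave -0.0016 for Col3a1, 0.068 for Col4a5 and 0.037 for Col4a6. Col3a1 was also -0.048 without suffixed probe sets, -0.013 with median centring, -0.0056 with age and -0.015 with sex and age. Leaving out each animal in turn gave -0.20 to 0.090 for Col17a1 (positive without normal 1), -0.13 to 0.20 for Col3a1 (negative without normal 4 or mutant 3), -0.29 to 0.033 for Col4a5 (positive without normal 1 or mutant 2) and -0.68 to 0.090 for Col6a3 (positive without normal 2). For the Gusb probe set with the higher mean the range was -0.061 to 0.37 (negative without normal 1 or mutant 1), and the other Gusb probe set kept its direction.

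With 1 animal left out, the fibrillar median was 0.012 to 0.14, the type IV median 0.047 to 0.17 and the median of the others -0.018 to 0.090. For the 5 collagens whose means lay below the background mark, the signal limits what a difference can show, and 4 animals per group limit the precision of all values.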
